A study of Mus musculus with 6 samples.

Results

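The neprilysin family of membrane-bound zinc endopeptidases was followed through the transcriptome of mouse sensory ganglia after a burn. Its 7 members in the mouse, Ecel1, Mme, Mmel1, Ece1, Ece2, Phex and Kel, were taken by gene symbol from the 38926 symbols counted. The set was chosen by the values of Ecel1 in burn and control libraries, and the other 6 members were added because they belong to the same family. The burn and control values of the members are therefore given as a description and support nothing by themselves.

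Burn libraries came from wild-type male C57BL/6 mice, 3 days past a burn injury. Control libraries came from wild-type male C57BL/6 mice labelled as controls. All animals were 6 to 8 weeks old, and each group had 3 libraries. The RNA was that of entire lumbar dorsal root ganglia (L3, L4 and L5), so the libraries hold RNA of glia, vessels and connective tissue beside that of the sensory neurons. The title of 1 burn library is BURN_IP, without a number, and this library was numbered burn 3. IP may stand for ipsilateral, but the title does not spell it out. The titles of burn 1 and burn 2 name no side. The labels do not say whether libraries came from separate or pooled animals, so the spread between libraries may be technical. The burn libraries held 22023565, 30074469 and 70002671 reads in genes and the control libraries 35991111, 17273908 and 81968142, which makes burn 3 and control 3 the deeper 2 of the 6. Summed over 10 pan-neuronal genes, among them Prph and Avil, the level was 7288 to 8731 CPM (read counts scaled to library size, with TMM factors) in burn libraries and 7677 to 9897 CPM in control libraries. Markers of myelinating Schwann cells summed to 4039 to 8201 CPM in burn and 4991 to 9217 CPM in control libraries.

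Enzymes of this family sit in the plasma membrane or in secretory vesicles with the catalytic domain outside the cytoplasm, and cut short peptides. Neprilysin, encoded by Mme, is the best known and ends the action of enkephalins, substance P and natriuretic peptides, which gives it a place in pain signalling. The endothelin converting enzymes Ece1 and Ece2 release active endothelins from their precursors and also act on peptides in endosomes and granules. Phex is an enzyme of bone and tooth cells whose loss causes phosphate wasting, and Kel encodes the Kell blood group protein of red cells. Ecel1, also called DINE for damage-induced neuronal endopeptidase, is a neuronal member whose transcript is known to increase when the axons of peripheral neurons are cut; its peptide substrates are not established.

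All members share the catalytic zinc motif of the family, in which a histidine, a glutamate and a second histidine lie within one short stretch of coding sequence. The stretch around it is shown for every member, since it is the feature that Ecel1 shares with the peptide-cutting enzymes. The sequences come from GENCODE mouse release 21 transcripts on GRCm38, from the longest complete coding sequence of each gene. Each covers 51 bases, read 5′ to 3′ on the coding strand, and the 15 bases in capitals are the codons for histidine, glutamate, any 2 residues and histidine.
Ecel1: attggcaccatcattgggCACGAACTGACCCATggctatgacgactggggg
Mme: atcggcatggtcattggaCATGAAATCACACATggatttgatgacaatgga
Mmel1: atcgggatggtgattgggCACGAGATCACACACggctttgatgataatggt
Ece1: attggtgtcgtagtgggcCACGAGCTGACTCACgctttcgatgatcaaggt
Ece2: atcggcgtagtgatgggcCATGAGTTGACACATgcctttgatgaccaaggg
Phex: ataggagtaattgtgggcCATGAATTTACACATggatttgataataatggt
Kel: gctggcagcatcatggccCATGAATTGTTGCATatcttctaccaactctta

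In each of the 7 coding sequences this motif occurred 1 time. By comparison, 701 of 21591 mouse coding genes (3.25%) held at least 1 match in their longest complete coding sequence, so the motif alone does not define the family. The Ecel1 stretch shared 35 of 51 bases with that of Mme, 33 with those of Mmel1 and Ece2, 30 with that of Ece1, 29 with that of Phex and 27 with that of Kel. Mme and Mmel1 were the closest pair, with 42 shared bases, and Kel shared between 19 and 27 bases with each of the others. In all 7 genes an exon ended after base 49 of the stretch, inside the codon that begins there, so the 51 bases lie on 2 exons with an intron at the same place. On GRCm38 the stretch of Ecel1 spans chr1:87149619-87149832 on the minus strand. It spans chr3:63362003-63364763 in Mme, chr4:154893303-154893832 in Mmel1, chr4:137957154-137958000 in Ece1 and chr16:20643872-20644069 in Ece2, each on the plus strand. In Phex it spans chrX:157183931-157186257 and in Kel chr6:41688113-41688371, both on the minus strand. These spans include the intron. The coding sequences ran from 713 codons in Kel to 782 in Mmel1, with 775 in Ecel1.

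As annotated on GRCm38, all members are protein-coding genes. Ecel1 lies at chr1:87147655-87156521 on the minus strand and shares no base with another annotated gene. Mme lies at chr3:63241537-63386030, Mmel1 at chr4:154869585-154895528, Ece1 at chr4:137862237-137965229 and Ece2 at chr16:20629828-20646485, all on the plus strand. Phex lies at chrX:157162075-157415312 and Kel at chr6:41686330-41704339, both on the minus strand. Ece2 shares 2937 exon bases with Gm49333, a gene on the same strand that the counted symbols lack, and Mmel1 shares 25 exon bases with Fam213b on the opposite strand. Reads from shared bases cannot be given to 1 gene with certainty, so the Ece2 values are uncertain to that extent. Mme, Ece1, Phex and Kel share no exon base with another annotated gene.

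The family's levels were far apart. Per kb of annotated exons, which allows levels of different genes to be set side by side, Ece1 averaged 19.8 ± 0.907 CPM per kb in burn and 19.3 ± 3.26 in control libraries (SD, n = 3 each), and Ece2 averaged 19.1 ± 2.27 in burn and 20.98 ± 1.35 in control libraries. Between 88.6% and 89.7% of 20361 coding genes lay below each of them in either group. Mme and Kel made up the middle of the family. Mme stood at 3.74 ± 1.69 CPM per kb in burn and 3.45 ± 0.245 in control libraries, and Kel at 3.09 ± 1.21 in burn and 5.18 ± 2.22 in control libraries. Phex stood at 0.447 ± 0.0904 CPM per kb in burn and 0.571 ± 0.151 in control libraries. Ecel1 stood at 1.01 ± 0.305 CPM per kb in burn and 0.138 ± 0.0320 in control libraries, and 41.1% of coding genes lay below it in burn against 29.6% in control libraries. Mmel1, a neprilysin homologue known mainly from testis, was at 0.0477 ± 0.0114 CPM per kb in burn and 0.0691 ± 0.0465 in control libraries. Its counts were 4, 6 and 8 reads in the burn libraries and 15, 4 and 7 in the control libraries.

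**Figure D1:**
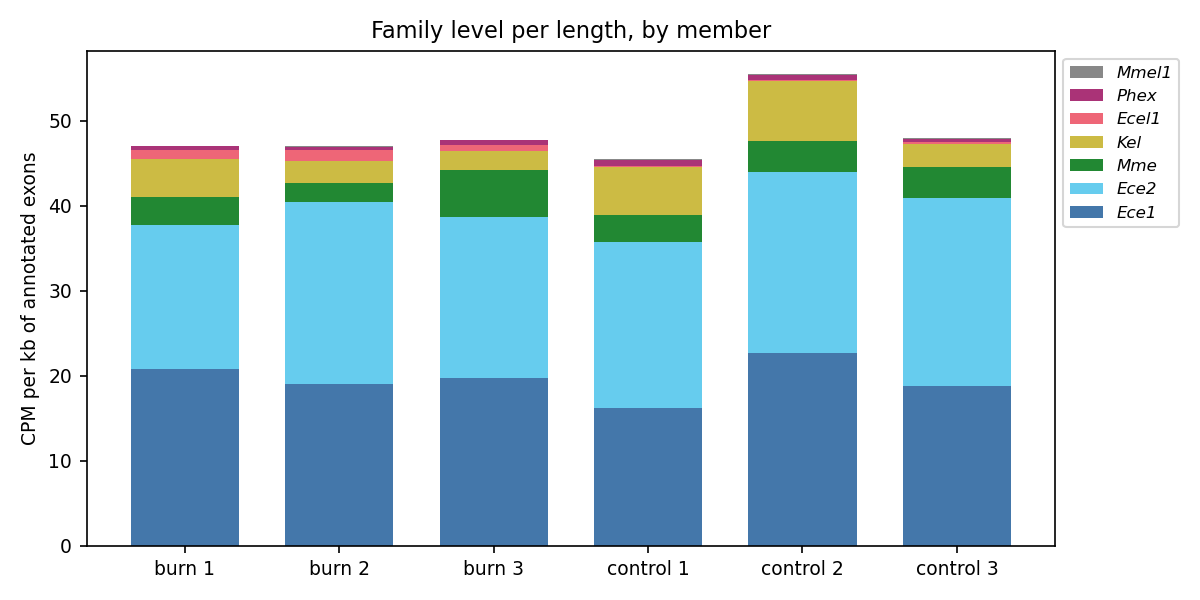
Level of each family member in CPM per kb of annotated exons (vertical axis, starting at 0), stacked for each of the 3 burn and 3 control libraries (horizontal axis). Ece1 and Ece2 make up most of every bar, and the Ecel1 segment is 1.40% to 2.68% of the family's level in burn libraries and 0.223% to 0.322% in control libraries.

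Neighbours in the order of level were compared within libraries, with Ecel1 left out because its level was the reason for the choice. That order came from the mean levels per kb of exons in these same libraries, so the data set the direction of each pair. The p-values therefore support no order, and the smallest of them says only that 1 member was higher in each of the 6 libraries. They take the 6 libraries as independent, which the labels do not show. An error in a gene's length would be shared by all libraries and is not in them. Over the 6 libraries the log2 ratio of Ece2 to Ece1 per length averaged 0.04 ± 0.22 (SD, n = 6) and was positive in 3 of 6 (exact sign-flip permutation test, two-sided, p 0.656, adjusted over 5 pairs 0.75). With the longest transcript of each gene as its length in place of all exons, Ece2 was the higher in 6 of 6 libraries (mean log2 ratio 0.47, exact permutation p 0.0313, adjusted 0.0391), so their order depends on the length used. Kel and Mme could not be ordered either (mean log2 ratio 0.12 ± 0.86, higher in 4 of 6, exact permutation p 0.75). Ece1 was above Kel, Mme above Phex and Phex above Mmel1 in 6 of 6 libraries, by mean log2 ratios of 2.37, 2.81 and 3.26. The exact permutation p of each was 0.0313, the smallest that 6 libraries allow (adjusted 0.0521, and 0.0391 with the longest transcript as length). Ecel1 was the fifth member by level in every burn library; in control 1 it was the last, and in control 2 and control 3 only Mmel1 was lower.

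Ecel1 was the one member whose burn and control libraries did not overlap. Its counts were 87, 133 and 154 reads in burn libraries 1 to 3, against 13, 10 and 43 reads in control libraries 1 to 3. Scaled to library size these were 3.84, 4.404 and 2.34 CPM in burn and 0.355, 0.556 and 0.540 CPM in control libraries. Every burn library was above every control library, as in 4.33% of all tested genes, with burn 3 the lowest of the burn group. The means were 3.53 ± 1.07 CPM in burn and 0.484 ± 0.112 CPM in control libraries (SD, n = 3 each), and the fitted log2 fold change was 2.86 (SE 0.34), or 7.24-fold. Of 15592 tested genes whose log2 CPM averaged 0 or more, 7 had a larger fitted increase. Ecel1 reached that level through its burn libraries, and over all 17534 tested genes its rank was 12. Ecel1 was chosen by these values, so the ranks describe it and support nothing. In bulk RNA more cells with the transcript and more transcript per cell cannot be told apart.

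**Figure D2:**
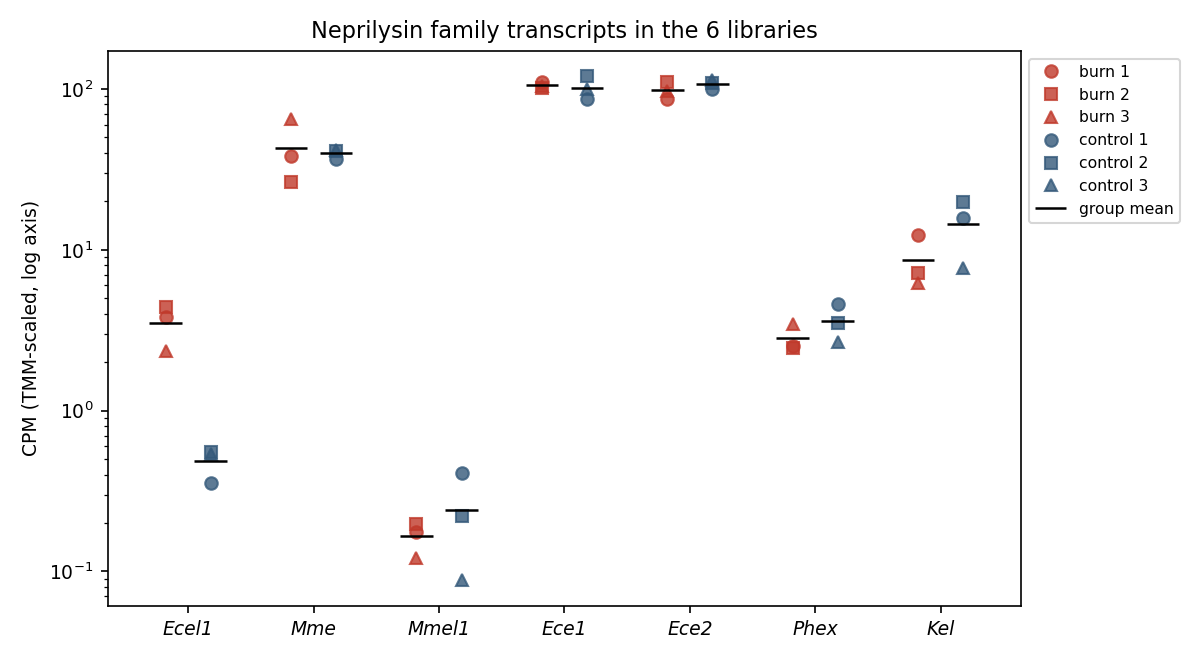
CPM on a log axis for the 7 members, with 3 burn libraries (red, left) and 3 control libraries (blue, right) per gene; symbols mark the libraries and black lines the group means. Ecel1 lies between 2.34 and 4.404 CPM in burn and between 0.355 and 0.556 CPM in control libraries, while both groups overlap in the other 6 members.

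The Ecel1 difference was smaller between the deeper libraries than among the others. Of these, burn 3 is also the library titled BURN_IP, so depth and title cannot be told apart in this contrast. Burn 3 over control 3 gave a log2 difference of 2.12, and the mean of burn 1 and burn 2 over that of control 1 and control 2 gave 3.18. Leaving out 1 library at a time gave fitted log2 fold changes between 2.66 and 3.10, the highest of them without burn 3, and the 4 shallower libraries alone gave 3.25. Spinal cord tissue is a neighbour that can come along with a ganglion, and its motor neurons are known to express Ecel1. The 12 spinal cord markers in the files summed to 209.5, 126.5 and 295.4 CPM in the burn libraries and 125.5, 124.1 and 68.8 CPM in the control libraries. Of 10 spinal cord markers tested, 10 had positive log2 fold changes, with a median of 1.23. In edgeR 0 passed, beside 0.0228% of all tested genes, and 8 were higher at an unadjusted p under 0.05, beside 2.04%. DESeq2 called 1, beside 0.104%, and limma-voom 0, beside 0.0171%. Burn lay above control without overlap in 5 of the 10, beside 4.33%. Of the motor neuron markers, Chat had 10, 6 and 30 reads in burn and 9, 0 and 8 in control libraries, and Mnx1 was at 0 in burn 2 and control 2. Slc5a7, of the same list, had more reads, at 71, 102 and 418 in burn and 132, 42 and 236 in control libraries (log2 fold change 0.54, SE 0.32). With the mean level of the 12 spinal cord markers as a covariate the Ecel1 log2 fold change was 3.62. These markers were mostly higher in burn, so over 6 libraries the covariate partly follows the group. A moved estimate or a lost call under it cannot be assigned to spinal cord RNA. The part of spinal cord RNA in the Ecel1 values was not tested.

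Over the 6 libraries, the genes whose profile lay nearest to that of Ecel1 were Cckbr, Atf3, Gpr151, Gal and Nts. Nearness was the root mean square distance between log2 CPM profiles, each centred on its own mean, among 15591 other tested genes at or above the same level. The log2 CPM had a prior count of 2, which narrows differences at low counts, such as the 4, 4 and 12 control reads of Cckbr. The distances were 0.39 for Cckbr, 0.40 for Atf3, 0.52 for Gpr151, 0.60 for Gal and 0.64 for Nts, against a median of 1.42 over those genes. These 5 were picked for the smallest distance, so their difference between burn and control follows from the choice and supports nothing. Cckbr encodes a cholecystokinin receptor and had 2.74, 2.82 and 1.35 CPM in burn and 0.109, 0.223 and 0.151 CPM in control libraries. Gpr151, an orphan receptor, stood at 17.8, 16.4 and 9.73 CPM in burn and 1.12, 1.11 and 1.01 CPM in control libraries. Like Ecel1, both were lowest of the burn group in burn 3, as were Atf3 and Gal. Nts, the neurotensin precursor, did not share this feature, at 15.6, 20.4 and 20.6 CPM in burn and 5.05, 5.40 and 7.01 CPM in control libraries. Atf3, a transcription factor of injured neurons, gave 80.9, 75.6 and 60.1 CPM in burn and 6.99, 6.73 and 7.20 CPM in control libraries. For every 100 Atf3 reads there were 4.75, 5.83 and 3.90 Ecel1 reads in the burn libraries and 5.08, 8.26 and 7.504 in the control libraries. The groups overlapped in this ratio, since burn 2 was above control 1.

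**Figure D3:**
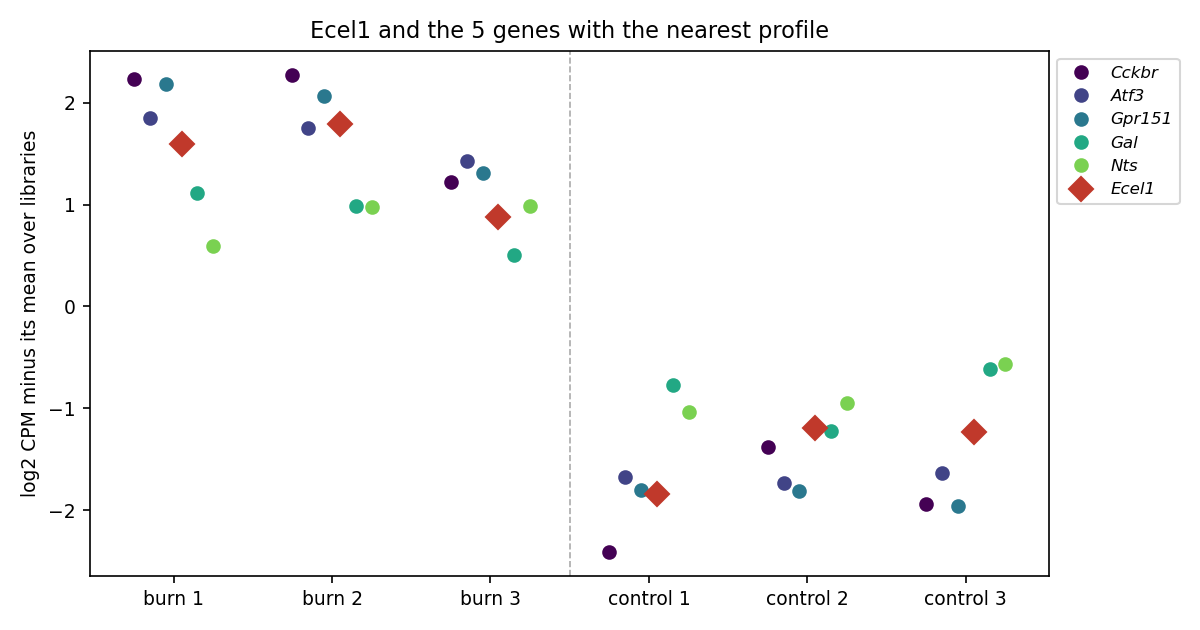
Log2 CPM minus its mean over the 6 libraries (vertical axis) for Ecel1 (red diamonds) and the 5 genes of nearest profile (circles), in 3 burn and 3 control libraries (horizontal axis, replicates in no order). All 6 genes lie above 0 in each burn library and below 0 in each control library, which follows from how the 5 were picked. The plotted values have no prior count, unlike those behind the distances.

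Mme, whose product neprilysin degrades enkephalins and substance P, was spread widely among the burn libraries. It stood at 38.5, 26.4 and 64.6 CPM in burn and 36.5, 41.3 and 41.5 CPM in control libraries. The highest and the lowest of the 6 values were both burn libraries, a 2.45-fold range, against a 1.14-fold range in control libraries. The log2 fold change was 0.12 (SE 0.29); it was 0.64 between burn 3 and control 3 and -0.26 among the other 4 libraries. The fitted log2 fold change was -0.28 without burn 3, so its sign rested on that library. Markers of myelinating Schwann cells summed to 6448, 4039 and 8201 CPM in burn libraries 1 to 3, the same order as Mme, and to 4991, 9217 and 6836 CPM in control libraries 1 to 3, another order than Mme. The part of Schwann cells in the Mme values was not tested.

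Mmel1 was below the filter on low counts, so it was the 1 member of 7 without a fitted value. Its highest count, 15 reads, was in control 1, and the other 5 libraries had 4 to 8 reads. A difference between groups was not detectable at this depth.

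Neither endothelin converting enzyme separated the groups. Ece1 stood at 110, 101 and 104 CPM in burn and 85.9, 120 and 99.8 CPM in control libraries, and the burn values lay inside the control range (log2 fold change 0.04, SE 0.14). Ece2 stood at 86.5, 110 and 97.0 CPM in burn and 99.7, 109 and 113 CPM in control libraries, with overlapping groups (log2 fold change -0.13, SE 0.12). Endothelial markers, from cells known for Ece1, summed to 263 to 346 CPM in burn and 257 to 382 CPM in control libraries, and control 2 was the highest library for both Ece1 and these markers. Of the 5 genes of the endothelin system, the ligand precursors Edn1, Edn2 and Edn3 and the receptors Ednra and Ednrb, 0 passed, 0 had an unadjusted p under 0.05 in edgeR and 0 were called by DESeq2 or limma-voom. The median log2 fold change of these 5 genes was 0.03. Edn2 had the lowest p of them, with a log2 fold change of -0.58 (SE 0.49), followed by Edn1 at -0.37 (SE 0.41) and Edn3 at 0.17 (SE 0.25).

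Phex had 57, 74 and 228 reads in burn and 168, 63 and 214 reads in control libraries. In scaled units these were 2.52, 2.45 and 3.47 CPM in burn and 4.59, 3.51 and 2.69 CPM in control libraries, so the groups overlapped (log2 fold change -0.34, SE 0.26). Burn 3 was above control 3 (log2 difference 0.37), while the other 4 libraries differed by -0.70. Genes of bone mineralization were followed beside it, because bone lies next to the ganglia when they are dissected. Of 11 such genes 7 were tested, 4 with a negative sign, and the median was -0.35 on the log2 scale. In edgeR 0 passed and 1, Ibsp, was lower at an unadjusted p under 0.05, beside 0.924% of all tested genes, and 0 were called by DESeq2 or limma-voom. The 11 genes summed to 306 to 396 CPM in burn and 330 to 343 CPM in control libraries. Most of this sum was Spp1, at 143 to 215 CPM in burn and 147 to 162 CPM in control libraries, and Ank. Ank stood at 124 to 134 CPM in burn and 121 to 131 CPM in control libraries. Burn lay below control without overlap in 2 of the 7 tested genes, Ibsp and Dmp1, beside 2.90% of all tested genes. Ibsp, a matrix protein of bone, had 5.30, 7.22 and 5.83 CPM in burn and 13.6, 7.57 and 8.55 CPM in control libraries (log2 fold change -0.70, SE 0.25). The osteocyte protein gene Dmp1 had -0.81 (SE 0.35) and the osteocalcin gene Bglap -1.57 (SE 0.69). Mepe and Slc34a1 were at 0 in at least 1 library. The part of bone RNA in the Phex values was not tested.

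Kel stood at 12.4, 7.15 and 6.18 CPM in burn and 15.7, 19.8 and 7.67 CPM in control libraries. Burn 1 was above control 3, so the groups overlapped, and the deeper libraries were the lowest of each group. The log2 fold change was -0.74 (SE 0.39), and it stayed negative in each of 18 alternative settings, from -1.26 to -0.45. Most red cell transcripts had the same sign. Of 11 erythroid markers tested, the 10 other than Xk had negative log2 fold changes, and the median of the 11 was -0.48. At an unadjusted p under 0.05, 4 were lower, beside 0.924% of all tested genes. None passed in edgeR, and DESeq2 and limma-voom made 0 calls among them. Their summed level was 2516, 1597 and 1954 CPM in burn and 3151, 3006 and 1398 CPM in control libraries, and none of the markers was at 0 in a library. Xk, which encodes the protein that Kell is linked to in the red cell membrane, had 20.03 ± 6.61 CPM in burn and 20.02 ± 5.68 CPM in control libraries (SD, n = 3 each), so its means did not differ beyond the spread. The part of blood in the Kel values was not tested.

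Counts over the family were set beside those over all genes. In edgeR's quasi-likelihood fit, 4 of 17534 tested genes (0.0228%) had an adjusted p under 0.05, and 0 of the 6 tested members were among them. At an unadjusted p under 0.05 there was 1 member, Ecel1, which was higher, beside 2.04% of all tested genes higher and 0.924% lower. DESeq2 called 1, also Ecel1, beside 0.104% of all genes with an adjusted p, and limma-voom 0, beside 0.0171%. The 3 burn values lay above the 3 control values in 4.33% of tested genes and below them in 2.90%; this held upward for 1 member, Ecel1, and downward for 0. Since these are the values the choice rested on, nothing is read from these shares. Of the 6 tested members 3 had positive and 3 negative signs, and their median log2 fold change was -0.05, beside 0.008 over all tested genes. The lowest unadjusted p of the 5 tested members other than Ecel1 was 0.0978, for Kel. The sign of Mme was negative in 5 of 18 alternative settings, that of Ece1 in 1 and that of Ece2 positive in 1, whereas Ecel1, Phex and Kel kept theirs in all 18.

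**Figure D4:**
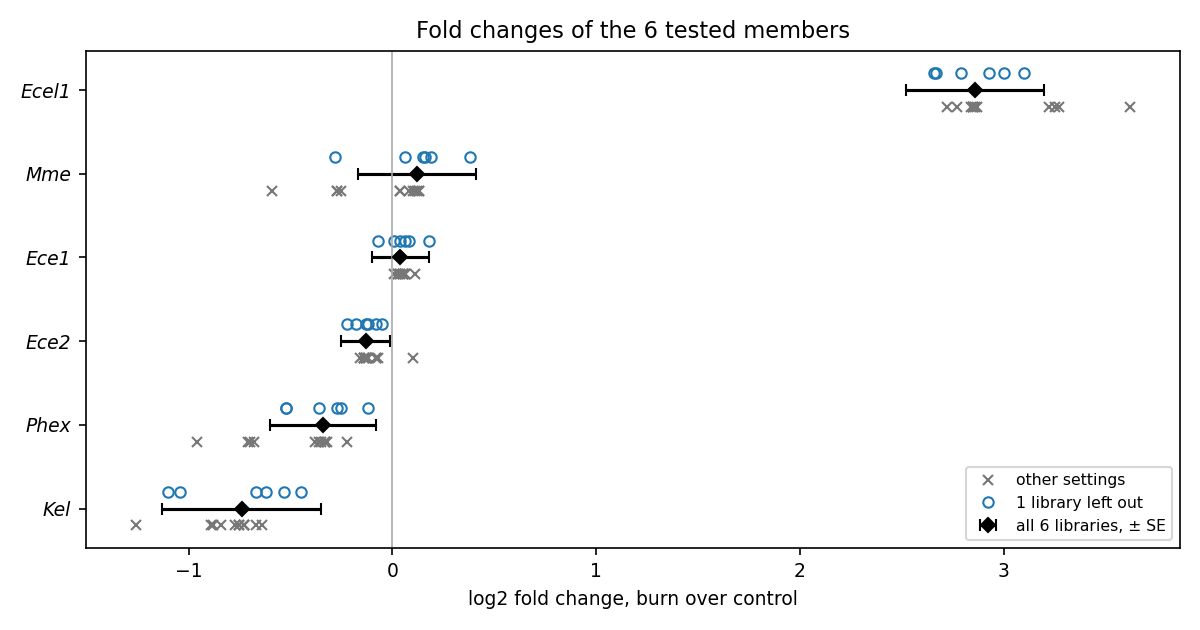
Log2 fold change of burn over control (horizontal axis) for the 6 tested members: black diamonds with bars give the fit on all 6 libraries ± SE, open circles the fits with 1 library left out, and crosses the other settings. Ecel1 lies between 2.66 and 3.62 in all of them, and Mme, Ece1 and Ece2 have values on both sides of 0.

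Among the peptides that these enzymes cut, the neuropeptide Y precursor rose. Of 18 precursor genes of known substrates of neprilysin or the endothelin converting enzymes, 15 were tested and 9 had a positive sign, around a median of 0.14 on the log2 scale. Npy, which encodes it, had 6.67, 10.2 and 3.54 CPM in burn and 0.164, 0.223 and 0.251 CPM in control libraries (log2 fold change 4.94, SE 0.48; edgeR adjusted p 0.0434). It was the 1 member of this list that passed, against the 0.0228% of all tested genes, and burn 3 was again the lowest of its burn values. Npy passed without burn 3, but not without burn 1, burn 2 or any 1 of the control libraries, nor in limma-voom. With the spinal cord covariate, which partly follows the group, it did not pass either. At an unadjusted p under 0.05 there were 5, all higher, beside 2.04% of all tested genes, namely Npy, Nts, Gal, Grp and Pdyn, the last 2 of which were chosen after their values were seen. DESeq2 called 3 members of the list, beside 0.104% of all genes, and limma-voom 0. The list was chosen with earlier results of these data known, so these shares are a description and support nothing. Gal, the galanin precursor, gave 23.3, 21.4 and 15.4 CPM in burn and 6.34, 4.62 and 7.03 CPM in control libraries (log2 fold change 1.72, SE 0.22; edgeR adjusted p 0.12). The list's precursor of substance P, Tac1, had 199 ± 54.7 CPM in burn and 206 ± 27.9 CPM in control libraries, and the enkephalin precursor Penk had 13.7 ± 0.372 CPM in burn and 13.1 ± 5.60 CPM in control libraries (SD, n = 3 each).

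Receptors of these peptides showed 0 genes that passed among 15 tested of 16, with a median log2 fold change of 0.07. In edgeR 1 had an unadjusted p under 0.05 in each direction, beside 2.04% of all tested genes higher and 0.924% lower, DESeq2 called 1 and limma-voom 0. The higher one was Cckbr (log2 fold change 3.88, SE 0.43; edgeR adjusted p 0.0691). The lower one was Oprd1, the delta opioid receptor at which enkephalins act, with 14.4, 15.03 and 13.8 CPM in burn and 18.02, 17.2 and 20.5 CPM in control libraries, without overlap (log2 fold change -0.37, SE 0.12; edgeR adjusted p 1). Oprm1, the mu opioid receptor, had 0.22 (SE 0.15).

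Peptidases outside the family gave no call. All 14 that were listed were tested, among them Ace, Anpep and Dpp4, 9 of them with a positive sign and a median log2 fold change of 0.03. In edgeR 0 passed and 0 reached an unadjusted p under 0.05; neither DESeq2 nor limma-voom made a call. The lowest p was that of Npepps, a cytosolic aminopeptidase, at 151, 158 and 176 CPM in burn and 142, 143 and 124 CPM in control libraries (log2 fold change 0.25, SE 0.12), and the membrane aminopeptidase gene Lnpep had 0.30 (SE 0.21). The burn values lay above the control values in 3 of the 14, Npepps among them, beside 4.33% of all tested genes.

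Enzymes and granule proteins that make peptides from their precursors gave 0 calls among 13 tested in edgeR, DESeq2 and limma-voom, 0 at an unadjusted p under 0.05 in edgeR, and a median log2 fold change of -0.03. The lowest p belonged to Pcsk1n, an inhibitor of the convertase Pcsk1, at -0.42 (SE 0.25), then Pcsk1 at 0.18 (SE 0.14) and the granule protein gene Chga at -0.22 (SE 0.18).

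Factors linked in nerve injury work to the induction of Ecel1 were listed as well, among them the cytokine Lif with its receptor genes Lifr and Il6st, and the transcription factors Atf3, Jun, Stat3 and Sp1. All 9 were tested, 8 had a positive sign, and their median was 0.16 on the log2 scale. Atf3 rose (log2 fold change 3.37, SE 0.15; edgeR adjusted p 0.000387) and was the 1 that passed; DESeq2 and limma-voom also called 1 each. Atf3 passed with any 1 library left out. With the spinal cord covariate, which partly follows the group, it did not. Il6st, the shared signalling receptor of the interleukin-6 family, stood at 790, 707 and 772 CPM in burn and 572, 653 and 601 CPM in control libraries, without overlap (log2 fold change 0.31, SE 0.12; edgeR adjusted p 1). Jun had a log2 fold change of 0.21 (SE 0.10). Lif itself had 1.16 ± 0.641 CPM in burn and 0.989 ± 0.440 CPM in control libraries (SD, n = 3 each). In a list of 20 transcripts known from axotomised sensory neurons, without Ecel1, 19 had a positive sign, the median was 0.75 and 3 passed in edgeR, Atf3, Gpr151 and Npy; 14 were higher at an unadjusted p under 0.05, beside 2.04% of all tested genes. DESeq2 called 9 of them, beside 0.104%, and limma-voom 1, beside 0.0171%. That list shares Npy, Nts, Gal and Nppb with the precursors, Cckbr with the receptors and Atf3 and Jun with the inducers. The inducers and the axotomy list were chosen with earlier results of these data known. Their shares are therefore a description and support nothing.

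**Figure D5:**
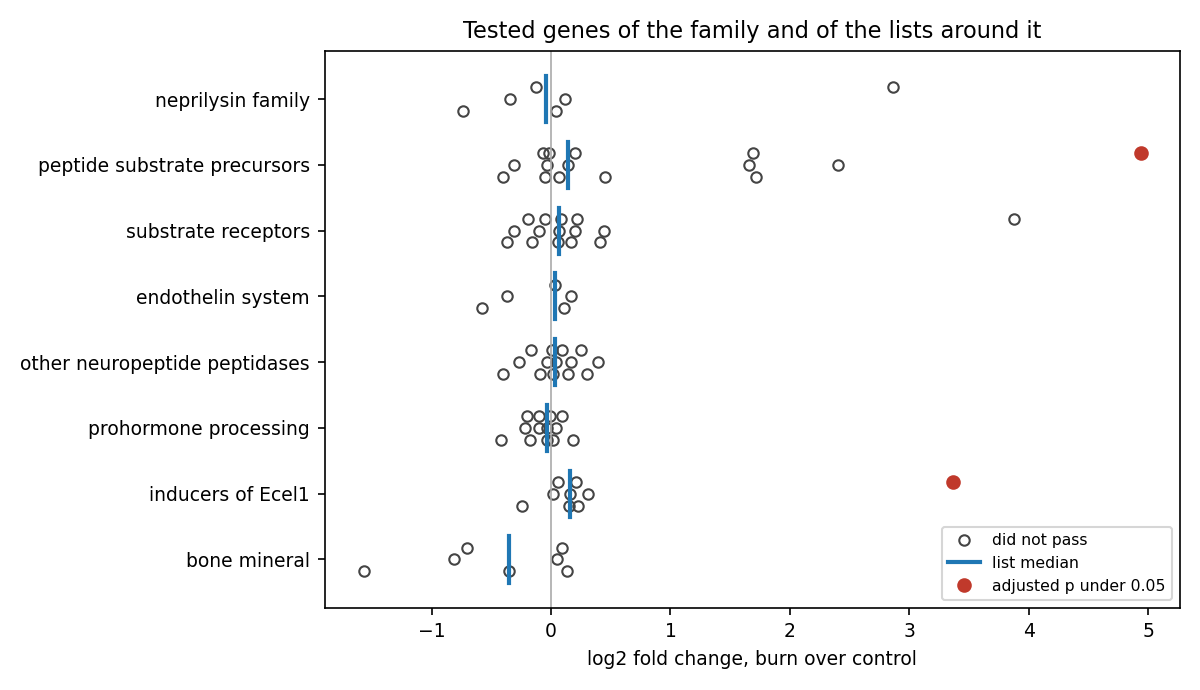
Log2 fold change of burn over control (horizontal axis) of each tested gene in the family and in 7 lists around it (rows); filled red circles passed an adjusted p under 0.05, open circles did not, and blue lines are list medians. The medians lie between -0.35 and 0.16, and Npy and Atf3 are the filled circles.

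Other cell type lists held 0 calls in edgeR. Median log2 fold changes in them stood at -0.09 for neuronal genes and for Schwann cell myelin genes, -0.02 for satellite glia, -0.04 for endothelium and for skeletal muscle, 0.16 for fibroblasts, 0.33 for macrophages and -0.30 for neutrophils, each with 0 members at an unadjusted p under 0.05 and 0 called by DESeq2 or limma-voom. Skeletal muscle markers varied widely between libraries, so their median does not mean equal amounts. They summed to 2394, 9235 and 1538 CPM in burn and 10160, 3384 and 590.5 CPM in control libraries.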

How the data were processed

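The authors deposited raw counts of reads per gene symbol, 1 file per library, from stranded total RNA libraries sequenced as single-end reads of 75 nucleotides, per the labels. Per the submitters' processing notes, the tools were STAR, SAMtools and HTSeq, without versions, and the build was mm10 or GRCm38. The annotation release and the counting's strand setting were not given in the sources used here. The 5 tally lines that name no gene held 49.18% to 56.22% of the entries of a file and were left out.

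Genes passing filterByExpr (minimum count 10, minimum total 15) were scaled by TMM and tested in edgeR 4.0.16 (R 4.3.3) with estimateDisp, robust glmQLFit and glmQLFTest, two-sided, burn over control, with Benjamini-Hochberg adjustment over 17534 genes. The SE is the log2 fold change divided by the square root of F. CPM use the scaled library sizes; log2 CPM profiles use a prior count of 2. Counts of libraries of one group differed beyond counting noise (chi-square over degrees of freedom 43.6 to 203.5), so none was treated as a library deposited again; whether they were prepared from one pool cannot be told from this. Exon lengths, coordinates and coding sequences came from GENCODE mouse release 21. Alternatives used DESeq2 1.42.0 and limma 3.58.1. The same fit was also run on counts simulated from the mean levels of these data with 1 common dispersion. The changed genes were drawn from those with a mean of at least 1 CPM, so a control level as low as that of Ecel1 was not covered. More genes were changed than the 4 called in the real data, which makes the adjusted threshold easier to reach. The fit recovered 42 of 67 genes changed by 1 on the log2 scale, 67 of 67 changed by 2 and 66 of 66 changed by 3. There were 15 false calls, and the real libraries may spread more than the simulated ones.

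The members, the gene lists and the alternatives were chosen with earlier results of these data known. Genes named are the members, list genes that passed, the 3 lowest p-values of each list and the 5 genes nearest to Ecel1; others are given as marker values or are said to be chosen after their values were seen. Tac1, Penk, Lif and Xk were named for their roles. Some genes of the lists are counted in them but not reported here by name.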

Additional observations from a re-analysis of the deposited data

How the results depend on the processing

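The Ecel1 log2 fold change of 2.86 stayed positive in 18 of 18 alternatives and ran from 2.66 to 3.10 when 1 library was left out; the settings that moved it by more than the spread between libraries were the spinal cord covariate (3.62) and the crossed replicate block (3.27). Ecel1 did not pass with all libraries in edgeR, and passed without a filter, with DESeq2, with the depth term, with the 4 shallower libraries, with the crossed replicate block and without burn 3. Of the other 5 tested members 0 passed in all alternatives but the crossed replicate block, where 1 did, Kel. The count of called genes, 4 with all libraries, was 14 without a filter, 28 with DESeq2, 38 with a depth term, 15 with the 4 shallower libraries and 0 with the spinal cord covariate, where 104 higher and 143 lower genes had an unadjusted p under 0.05 in edgeR; it ran from 1 to 6 with 1 library left out. The called genes of the pathway lists, 3 with all libraries, were 6 without a filter, 9 with DESeq2, 1 with limma-voom, 7 with a depth term, 7 with the 4 shallower libraries, 0 with the spinal cord covariate and 1 to 5 with 1 library left out. Npy was not among them without burn 1, burn 2 or any 1 control library, and Atf3 was in each of these. The replicate block on the 4 libraries numbered 1 and 2 in both groups gave 4 called genes and an Ecel1 log2 fold change of 3.22; the labels do not say that the numbers pair libraries, and the same-numbered libraries deviated in opposite directions (r = -0.385 across genes, which are not independent). The crossed block, chosen after seeing the data, gave 413 called genes, 18 of them in the pathway lists. The longest transcript as each gene's length, also chosen after seeing the data, left the place of Ecel1 the same in 6 of 6 libraries. The spinal cord covariate partly follows the group, so its shifts cannot be assigned to spinal cord RNA. The depth term and the 4 shallower libraries also set burn 3, titled BURN_IP, apart from burn 1 and burn 2. The cause of these shifts was not tested. Depth limits Mmel1, with at most 15 reads in a library.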
